A study of Mus musculus with 5 samples.

Results

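The genes described here encode the machinery that copies DNA in S phase and the machinery that separates chromosomes in mitosis. They were fixed by name as 34 genes, 16 for DNA replication and 18 for mitosis. A gene entered where the array annotation gave a row that single symbol, and 33 had such a row out of 17756 genes in the table. Cyclin B1 (Ccnb1) had no row of its own symbol and was not analysed here. The replication genes thus number 16 and the mitosis genes 17.

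The samples were 5 arrays of C57Bl/6 mouse embryo cells, taken at E11.5 from the aorta-gonad-mesonephros (AGM), the region where blood stem cells first arise. All cells were sorted for VE-cadherin and CD45 and kept for 4 hours in culture medium with fetal bovine serum, so both groups share the sort and the culture. The IFNa group (replicates 1, 2 and 3, n = 3) received interferon-alpha at 0.5 ng/ml during those hours, and the vehicle group (replicates 2 and 3, n = 2) received vehicle. The sample labels call the cells hematopoietic stem cells, but they do not say whether embryos were pooled. The title of the series puts the question as the part interferon-alpha plays in stem cell maturation.

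Cells that divide switch these genes on in sequence. E2F transcription factors drive the replication genes near the start of S phase, when MCM helicases already loaded at origins are activated. The mitosis genes follow in G2 under B-MYB and FOXM1 complexes, and many of their products are destroyed as the cell divides. Interferon-alpha is known to slow the division of many cultured cells and to push dormant adult blood stem cells into cycle. Array signal follows RNA per sample, so a lower share of dividing cells and less RNA in each dividing cell cannot be told apart in these data.

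The upstream sequences are given first. In the RefSeq promoter table (GRCm38.p6), 27 of the 33 genes had an entry, 13 of the replication genes and 14 of the mitosis genes. Mcm4, Ccne2, Gins2, Ccna2, Aurkb and Tpx2 had none. The 250 bases before each start were searched on both strands for E2F sites (TTCCCGC or TTGGCGC), for the cell cycle homology region or CHR (TTTGAA or TTTAAA), and for the CCAAT box that NF-Y binds (CCAAT). Matches may overlap one another. Of the printed promoters, those of Rrm1 and Mcm6 belong to the brightest replication genes with an E2F match, and those of Mki67 and Ube2c to the brightest mitosis genes with a CHR or CCAAT match. They are shown because they hold the elements that the counts compare. Matches are in capitals, 5′ to 3′ on the strand of the gene, for Rrm1 at chr7:102441445-102441694 (plus strand), Mcm6 at chr1:128359706-128359955 (minus), Mki67 at chr7:135716380-135716629 (minus) and Ube2c at chr2:164769679-164769928 (plus).
Rrm1: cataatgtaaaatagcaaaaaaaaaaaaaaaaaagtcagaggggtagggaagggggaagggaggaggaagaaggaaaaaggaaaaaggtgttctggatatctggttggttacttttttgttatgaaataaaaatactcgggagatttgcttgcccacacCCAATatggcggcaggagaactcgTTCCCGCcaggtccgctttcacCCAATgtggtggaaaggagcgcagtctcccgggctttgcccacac
Mcm6: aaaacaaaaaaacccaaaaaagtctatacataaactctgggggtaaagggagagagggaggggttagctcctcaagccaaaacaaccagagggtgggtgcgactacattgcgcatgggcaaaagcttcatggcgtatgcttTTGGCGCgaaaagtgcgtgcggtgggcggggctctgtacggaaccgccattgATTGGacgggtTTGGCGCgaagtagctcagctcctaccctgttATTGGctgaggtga
Mki67: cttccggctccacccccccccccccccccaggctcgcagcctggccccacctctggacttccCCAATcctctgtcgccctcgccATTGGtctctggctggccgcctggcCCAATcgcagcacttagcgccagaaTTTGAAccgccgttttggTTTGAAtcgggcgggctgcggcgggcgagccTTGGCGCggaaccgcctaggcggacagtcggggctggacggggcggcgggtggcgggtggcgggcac
Ube2c: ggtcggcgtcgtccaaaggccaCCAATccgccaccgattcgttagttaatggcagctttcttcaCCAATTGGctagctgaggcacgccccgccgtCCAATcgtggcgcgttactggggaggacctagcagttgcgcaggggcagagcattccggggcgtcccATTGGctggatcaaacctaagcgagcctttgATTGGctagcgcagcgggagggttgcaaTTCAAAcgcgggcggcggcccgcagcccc

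Rrm1 had 1 E2F match, 67 bases before its start, between CCAAT boxes at 91 and 45 bases. Mcm6 had an E2F match at 109 and another at 46 bases, and no CHR. Mki67 had CHR matches at 116 and 98 bases, nearer to the start than its CCAAT boxes, and also 1 E2F match. Ube2c had 1 CHR match 29 bases before its start, and 6 CCAAT matches upstream of it, of which the pair at 186 and 183 bases overlap.

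An E2F match was found for 6 of 13 replication genes (46.2%) and for 2 of 14 mitosis genes (14.3%), against 8.57% of the 14126 promoters of measured genes and 5.71% of all 27025. A CHR match was found for 4 replication genes (30.8%) and 10 mitosis genes (71.4%), against 19.6% and 25.5% of those promoters. CCAAT matches were common to both classes, at 10 (76.9%) and 13 genes (92.9%), against 35.5% and 34.5%. Both elements together stood in 3 replication promoters (23.1%) and 9 mitosis promoters (64.3%), against 7.20% and 9.00%. These shares describe letters in a window and were not tested.

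Both classes gave strong array signals. The mean log2 signal over 5 arrays had a median of 8.59 for replication genes and 9.17 for mitosis genes, where the median of all genes was 5.31. As a rank among all genes, the replication genes ran from the 29.2nd to the 98.8th percentile with a median of 83.3. The mitosis genes ran from 46.0 to 99.2 with a median of 87.5. Above the median gene lay 14 of 16 replication genes and 16 of 17 mitosis genes, and 10 and 12 lay above the 75th percentile. These are ranks of probe set signal, not of transcript amount, since probe sets differ in how well they hybridise.

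**Figure D1:**
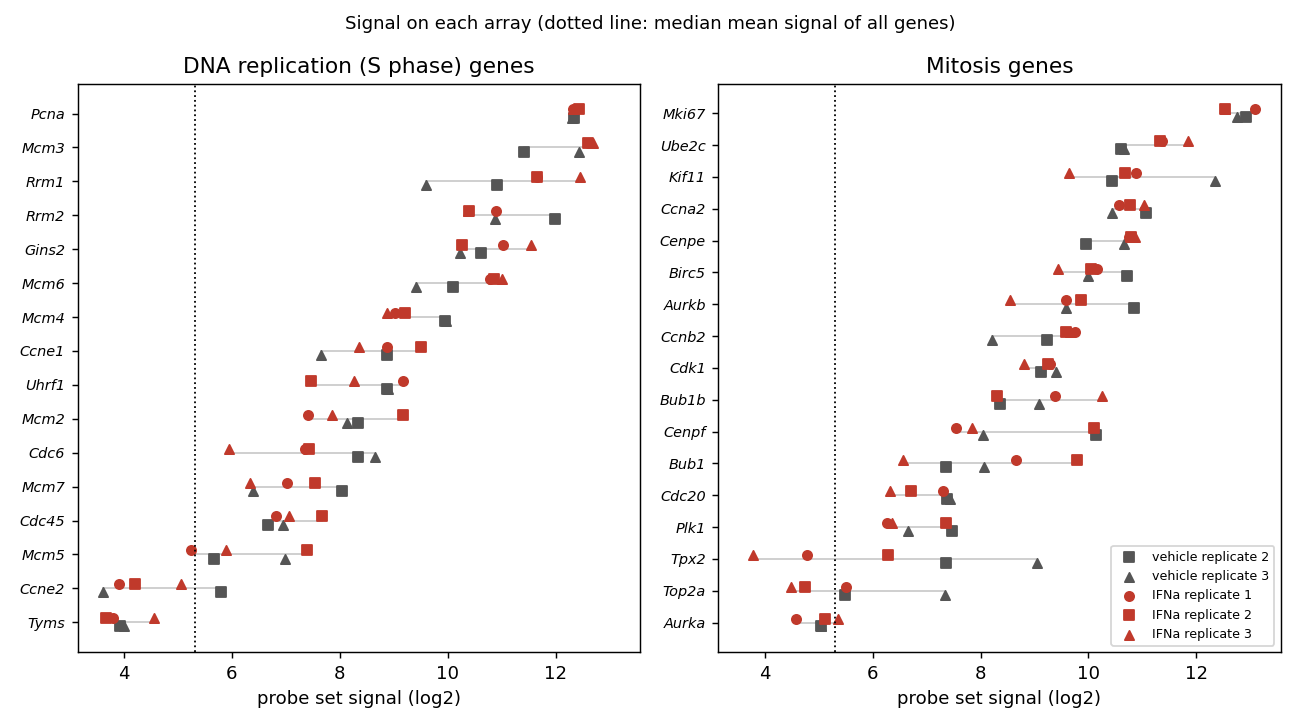
Log2 probe set signal of each gene on each array (points), with genes ordered by mean signal, vehicle in grey and IFNa in red. The dotted line is the median mean signal of all genes (5.31), and 30 of the 33 genes lie above it.

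Replication genes are taken first, in the order in which their products act. Cyclin E, the activator of CDK2 at the entry into S phase, is encoded by Ccne1 and Ccne2. Ccne1 read 8.88 and 7.66 with vehicle and 8.88, 9.50 and 8.36 with IFNa. Ccne2 was far dimmer, at 5.80 and 3.62 with vehicle and 3.91, 4.21 and 5.07 with IFNa. For both genes the groups overlapped, and the vehicle arrays lay farther apart than the group means did.

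Cdc6 loads the MCM helicase onto origins. Its signal was 8.35 and 8.64 with vehicle and 7.36, 7.43 and 5.95 with IFNa, so every IFNa array was below both vehicle arrays. The difference was -1.58 ± 0.62 on the log2 scale (moderated SE), with a 95% interval of -3.07 to -0.09 and an adjusted p of 0.465 in limma. It was the largest negative difference of the replication genes, and leaving out single arrays gave -1.84 to -1.10.

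The 6 MCM subunits form 1 ring, the helicase that unwinds DNA at the fork. Their probe sets ranged from 6.23 (Mcm5) to 12.34 (Mcm3) in mean signal, and their differences ran from -0.93 to 1.13 with a median of -0.12. Mcm6 read 10.09 and 9.41 with vehicle and 10.77, 10.86 and 11.01 with IFNa, a difference of 1.13 ± 0.39 with no overlap (adjusted p = 0.404, limma). Mcm3 read 11.41 and 12.42 with vehicle and 12.59, 12.60 and 12.69 with IFNa, again with no overlap. Its difference of 0.71 ± 0.33 became 0.21 when vehicle replicate 2 was left out and 1.21 when vehicle replicate 3 was.

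Mcm4 lay on the other side. It read 9.95 and 9.97 with vehicle and 9.02, 9.21 and 8.88 with IFNa, a difference of -0.93 ± 0.42 with no overlap (adjusted p = 0.531, limma). Its pooled within-group SD, 0.13, was far below the median of 0.57 among the 500 genes nearest in signal. Mcm2, Mcm5 and Mcm7 overlapped between groups, with differences of -0.09, -0.15 and -0.25, and each of these changed sign with at least 1 array left out. Mcm5 spread most of the replication genes, with 5.67 and 6.98 on the vehicle arrays and 5.24, 7.40 and 5.88 on the IFNa arrays. Mcm7 read 8.04 and 6.39 with vehicle and 7.03, 7.54 and 6.33 with IFNa. The subunits of the ring therefore gave no common direction on these arrays.

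Cdc45 and the GINS subunit Gins2 join the MCM ring to make it an active helicase. Cdc45 read 6.68 and 6.94 with vehicle and 6.82, 7.67 and 7.05 with IFNa, a difference of 0.37 ± 0.50. Gins2 was brighter, from 10.23 to 11.55 over all arrays, with a difference of 0.52 ± 0.46. Neither separated the groups.

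Pcna, the sliding clamp that holds DNA polymerase on its template, was the steadiest of all 33 genes. It read 12.34 and 12.30 with vehicle and 12.33, 12.43 and 12.33 with IFNa, a pooled SD of 0.05 where genes of like signal had a median of 0.30. Its difference was 0.05 ± 0.21, and the 95% interval of -0.45 to 0.54 excludes a 2-fold change either way. Uhrf1, which brings the maintenance methyltransferase to newly copied DNA, differed by -0.58 ± 0.62 with overlapping groups.

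Nucleotide supply gave opposite differences for the subunits of 1 enzyme. Ribonucleotide reductase is built from a large subunit, Rrm1, and a small one, Rrm2, whose supply is usually limiting in S phase. Rrm1 read 10.91 and 9.59 with vehicle and 11.66, 11.66 and 12.44 with IFNa, a difference of 1.67 ± 0.49 or 3.18-fold. It had the smallest adjusted p of the replication genes, 0.350 in limma, and its difference became 2.33 on leaving out vehicle replicate 2 and 1.01 on leaving out vehicle replicate 3. Rrm2 read 11.99 and 10.88 with vehicle and 10.90, 10.39 and 10.37 with IFNa, a difference of -0.88 ± 0.44 with slight overlap. Without vehicle replicate 2, the brightest array for Rrm2, its difference was -0.33. Tyms, which makes thymidylate, was the dimmest of the 33 genes, at 3.93 and 4.00 with vehicle and 3.80, 3.67 and 4.56 with IFNa. Signal that low leaves little room to show a fall.

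Of the 16 replication genes 0 passed the threshold, an adjusted p under 0.05 over all genes in limma, which 0.135% of all genes passed. An unadjusted p under 0.05 was reached by 3 (Rrm1 and Mcm6 higher, Cdc6 lower), against 10.0% of all genes, 4.52% higher and 5.51% lower. With single arrays left out this count was 1 without IFNa replicate 1, 1 without IFNa replicate 3, and 2 without each of the others. The arrays did not overlap between groups for 5 of 16, against 25.6% of all genes, so the share is near the background. The median difference was -0.02, where that of all genes was -0.04, and it changed sign when each array was centred on its median (0.06). Leaving out any array other than IFNa replicate 2 turned it positive too, at 0.03 to 0.21. Among genes above the median signal it was -0.02 for 14 replication genes and 0.08 for all 8878. By size, 3 of 16 differed by more than 1 on the log2 scale, or 18.8%, against 18.7% of all genes.

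The mitosis genes are taken from entry into mitosis to exit. Mki67, the proliferation marker that coats mitotic chromosomes, was the brightest of the 33 genes. It read 12.92 and 12.76 with vehicle and 13.08, 12.52 and 12.53 with IFNa, a difference of -0.13 ± 0.24 with an interval of -0.71 to 0.46. Cdk1, the kinase that starts mitosis, read 9.13 and 9.40 with vehicle and 9.30, 9.24 and 8.81 with IFNa, a difference of -0.14 ± 0.45. Both genes overlapped between groups, and 7.6% of the 500 genes nearest in signal varied less than Cdk1 did.

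The cyclins that partner Cdk1 are Ccna2 and Ccnb2. Ccna2 read 11.07 and 10.44 with vehicle and 10.57, 10.77 and 11.04 with IFNa, a difference of 0.04 ± 0.37. Ccnb2 read 9.24 and 8.22 with vehicle and 9.75, 9.58 and 9.65 with IFNa, a difference of 0.93 ± 0.49 with no overlap (adjusted p = 0.608, limma). The IFNa arrays of Ccnb2 were close together, at an SD of 0.08, but leaving out vehicle replicate 2 gave a difference of 1.44 and leaving out vehicle replicate 3 gave 0.43.

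The spindle genes held the largest single difference. Tpx2, which nucleates spindle microtubules and activates Aurora A, read 7.36 and 9.04 with vehicle and 4.79, 6.29 and 3.78 with IFNa. No arrays overlapped, and the difference of -3.25 ± 0.86 corresponds to a 9.49-fold lower signal. Its adjusted p was 0.303 in limma, the smallest of the 33 genes. The IFNa arrays of Tpx2 themselves spanned 2.52 on the log2 scale. Its signals on IFNa replicates 1 and 3 were below 5.31, the median of all genes. The size of the difference may thus depend on the background step of the array processing. Leaving out any 1 array kept the difference between -4.09 and -2.40. Its partner Aurka read 5.05 and 5.04 with vehicle and 4.58, 5.12 and 5.36 with IFNa, near the median signal of all genes, with a difference of -0.03 ± 0.38. The motor Kif11, which pushes spindle poles apart, read 10.44 and 12.34 with vehicle and 10.89, 10.67 and 9.63 with IFNa, and its difference was -0.99 ± 0.66. Without vehicle replicate 3 the difference of Kif11 was -0.04.

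Top2a untangles sister DNA before segregation. It read 5.49 and 7.34 with vehicle and 5.50, 4.74 and 4.49 with IFNa, a difference of -1.50 ± 0.64 that was -0.58 without vehicle replicate 3. Aurkb and Birc5 (survivin), subunits of the chromosomal passenger complex, differed by -0.89 ± 0.61 and -0.47 ± 0.45, both with overlapping groups. Plk1, a kinase of spindle assembly and mitotic exit, read 7.46 and 6.66 with vehicle and 6.27, 7.36 and 6.37 with IFNa, a difference of -0.39 ± 0.57. In all 4 genes the mean was lower with IFNa and an IFNa array reached the vehicle range.

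Kinetochore and checkpoint genes differed widely in spread, and Cenpf and Bub1 had the highest pooled SDs of the 33 genes. Cenpf, a kinetochore protein, read 10.14 and 8.04 with vehicle and 7.55, 10.10 and 7.84 with IFNa, with both groups split by more than 2 on the log2 scale. Bub1, a checkpoint kinase, read 7.37 and 8.07 with vehicle and 8.65, 9.78 and 6.56 with IFNa. Their pooled SDs were 1.43 and 1.36, against medians of 0.70 and 0.69 among genes of like signal. Bub1b (BubR1) differed by 0.60 ± 0.67 with overlap. Cenpe, the kinetochore motor, was tight by comparison, at 9.95 and 10.66 with vehicle and 10.75, 10.78 and 10.86 with IFNa. Its groups did not overlap, though its difference of 0.49 ± 0.37 was 0.14 without vehicle replicate 2.

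The exit from mitosis runs through the anaphase-promoting complex, for which Cdc20 is an activator and Ube2c the ubiquitin-conjugating enzyme. Their differences had opposite signs. Ube2c read 10.61 and 10.66 with vehicle and 11.36, 11.33 and 11.84 with IFNa, a difference of 0.87 ± 0.32 with no overlap (adjusted p = 0.438, limma). It stayed between 0.71 and 0.96 with each array left out. Cdc20 read 7.38 and 7.44 with vehicle and 7.30, 6.71 and 6.33 with IFNa, a difference of -0.63 ± 0.51 with no overlap (adjusted p = 0.778, limma).

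**Figure D2:**
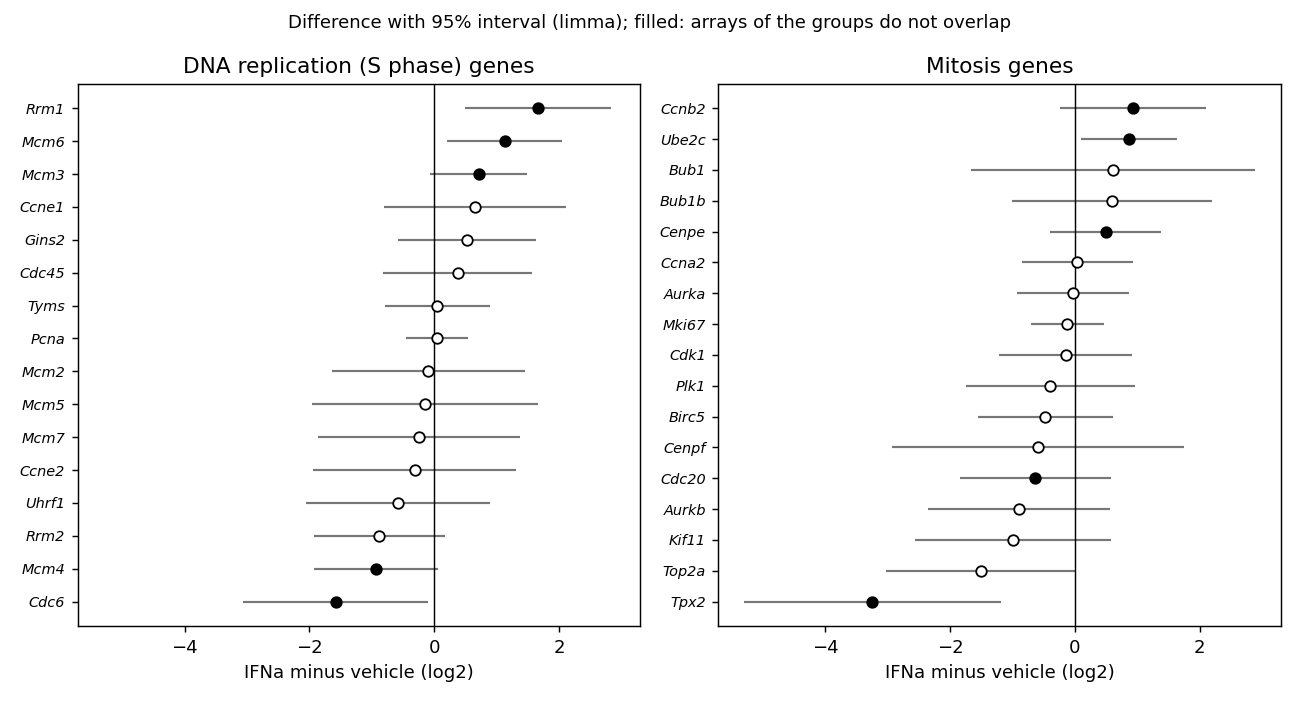
IFNa minus vehicle on the log2 scale for each gene (points) with the 95% interval from limma (bars). Filled points mark the 5 replication and 5 mitosis genes whose arrays did not overlap between groups, against 25.6% of all genes. The threshold was passed by 0 of the 33 genes, against 0.135% of all genes.

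Of the 17 mitosis genes 0 passed the threshold in limma, against 0.135% of all genes, and 2 had an unadjusted p under 0.05 (Ube2c higher, Tpx2 lower), against 10.0%. Without vehicle replicate 2 this count was 4, without vehicle replicate 3 it was 0, and without IFNa replicate 3 it was 1. Groups did not overlap for 5 of 17, against 25.6% of all genes, again near the background. The median difference was -0.14, with 11 genes below 0 and 6 above. That of all genes was -0.04, with 9596 of 17756 below 0. Among genes above the median signal it was -0.27 for 16 mitosis genes and 0.08 for all 8878. The median signal of the mitosis genes had a pooled within-group SD of 0.40 between arrays. Their median difference was below 0 under all 13 alternatives tried, several of which cannot change a gene's difference. It ran from -0.41 with quantile normalization repeated to -0.02 without vehicle replicate 2. No p is attached to it. A difference over 1 on the log2 scale was seen for 2 of 17 genes, or 11.8%, against 18.7% of all genes.

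Precision differed from gene to gene. The 95% interval lay wholly within 1 on the log2 scale, a 2-fold change, for Pcna and Tyms among the replication genes and for Mki67, Ccna2 and Aurka among the mitosis genes. For the other 28 genes a change of that size in at least one direction was not excluded. Tyms and Aurka, among those with narrow intervals, were dim, at percentiles 29.2 and 46.0 of signal, where a fall has less room to show. The standard errors ran from 0.21 to 0.76 among replication genes and from 0.24 to 0.98 among mitosis genes.

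Spread between arrays of 1 group was close to that of other genes of like signal. The median pooled SD was 0.60 for replication genes, where their nearest genes in signal had a median of 0.52, and 0.44 for mitosis genes, where theirs was 0.55. Above the median of their nearest genes lay 9 of 16 and 7 of 17. All genes together had a median SD of 0.42, with the highest values at intermediate signal.

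**Figure D3:**
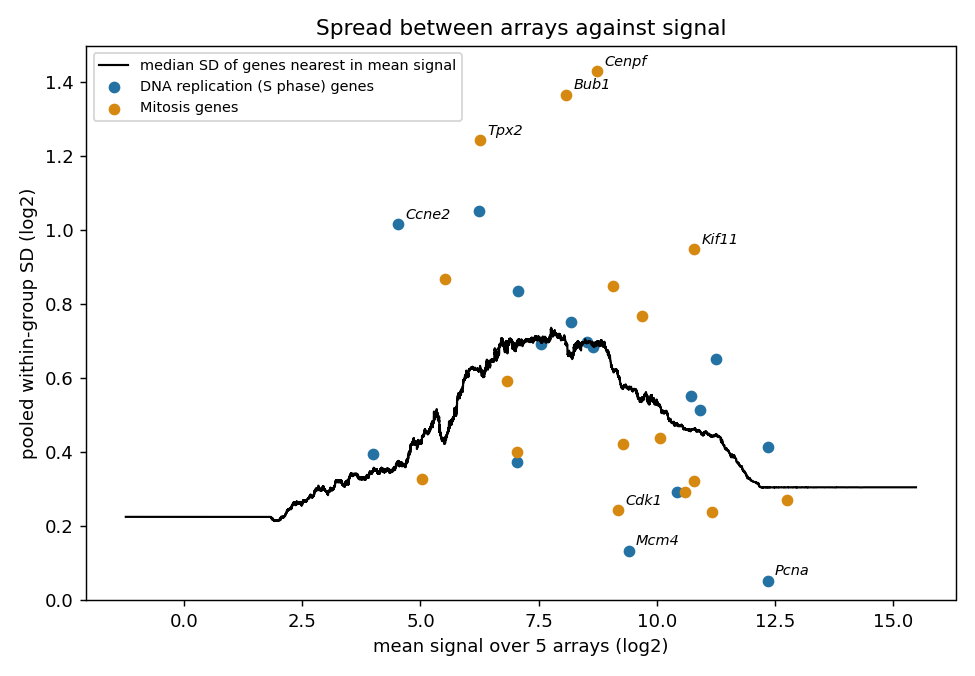
Pooled within-group SD against mean signal, both on the log2 scale, for replication genes (blue) and mitosis genes (orange). The line is the median SD of the 500 genes nearest in signal. Pcna and Mcm4 sit far below it, and Ccne2, Cenpf, Kif11, Tpx2 and Bub1 far above.

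Array by array, the replication genes did not shift together. The median over the 16 genes of the signal minus the gene's own mean was 0.07 and -0.05 on vehicle replicates 2 and 3, and -0.03, 0.17 and -0.14 on IFNa replicates 1, 2 and 3. For the mitosis genes it was 0.02 and -0.0048 with vehicle and 0.10, 0.07 and -0.46 with IFNa. IFNa replicate 3 thus stood lowest for the mitosis genes, and it was the lowest array for 8 of the 17, although it was the lowest for 16.3% of all genes. It was the highest for 4 of the 17, against 24.4% of all genes. A low IFNa replicate 3 was also seen in some other lists, but not in all. Its median deviation was -0.44 in the further DNA synthesis genes (lowest array for 11 of 24). In the further licensing genes it was -0.38 (6 of 20, the same count as for vehicle replicate 3). In the further mitosis genes it was -0.15 (9 of 35), and vehicle replicate 2 stood lower there, at -0.24 (10 of 35). IFNa replicate 3 stood at -0.05 in the cell cycle regulators and -0.93 in the endothelial markers. In both lists IFNa replicate 2 stood lower, at -0.09 and -0.99. IFNa replicate 3 was above 0 in the blood stem and progenitor (0.39), granulocyte progenitor (0.14), erythroid (0.09) and mesenchymal markers (0.60). IFNa replicate 3 was also the lowest array for both sort markers and for 6 of 10 macrophage markers, and the part of the cells in the sort was not tested. Without IFNa replicate 3 the median difference of the mitosis genes was -0.20.

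**Figure D4:**
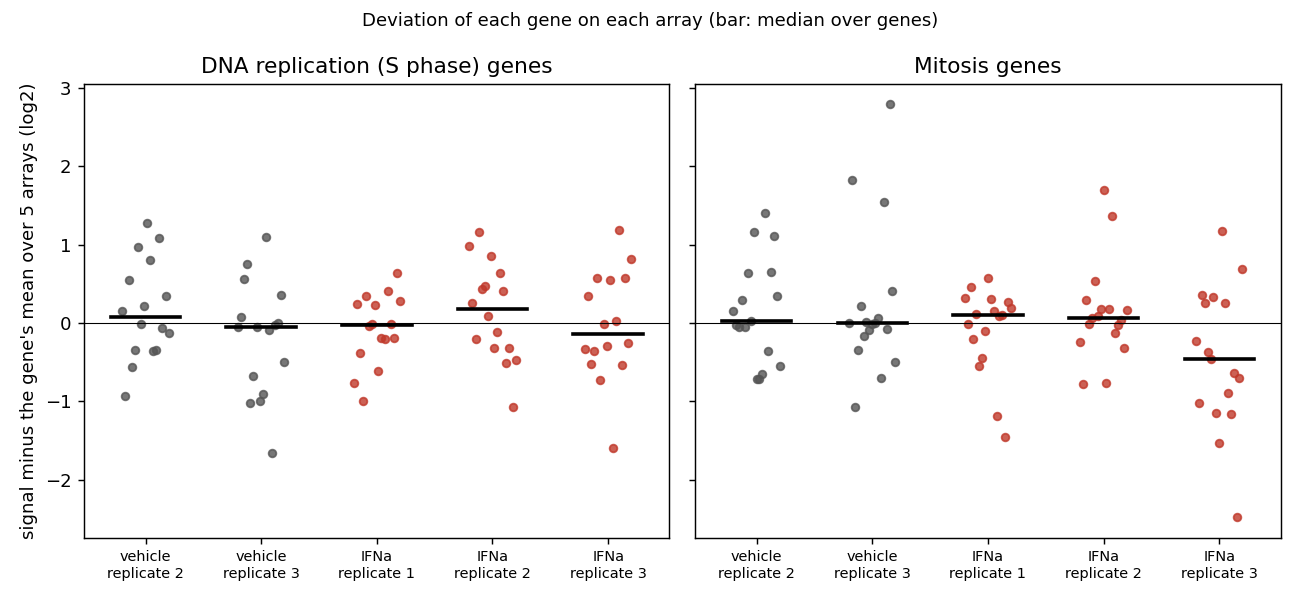
Signal of each gene on each array minus its mean over 5 arrays (points, log2), with the median over genes as a bar. The bar of IFNa replicate 3 is at -0.46 for the mitosis genes, and the other 9 bars lie between -0.14 and 0.17.

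Other genes of the same pathways held 0 that passed, and 10.0% of all genes reached an unadjusted p under 0.05. Among 20 further genes of origin licensing and firing 0 passed in limma. Their median difference was 0.08, with 10 above 0 and 10 below, and 4 reached that unadjusted level. Higher on every IFNa array were the origin recognition subunit Orc6 (1.41 ± 0.46), the replisome protein Wdhd1 (1.95 ± 0.62) and the checkpoint adaptor Clspn (1.22 ± 0.50), and Tipin, of the fork protection complex, was lower on every one (-2.52 ± 0.95). Among 24 of 26 listed genes of DNA synthesis and nucleotide supply 0 passed in limma, 3 reached that unadjusted level, and the median was 0.30, with 17 above 0 and 7 below. These were the polymerase alpha subunit Pola1 (2.15 ± 0.58), the ligase Lig1, which joins Okazaki fragments (2.06 ± 0.64), and the histone mRNA binding protein Slbp (-3.35 ± 0.93). Slbp read below 0.79 on every IFNa array, where the size of a difference depends on the background step.

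In 35 further mitosis genes the median was 0.02, 0 passed in limma, and 3 reached an unadjusted p under 0.05, against 10.0% of all genes. The condensin subunit Smc4 differed by 0.53 ± 0.19, the midzone bundler Prc1 by -2.92 ± 0.91 and the microtubule protein Ckap2 by -1.85 ± 0.63, each without overlap. Among 27 of 28 listed cell cycle regulators the median was -0.27, 0 passed in limma, and 3 reached that unadjusted level. Cdk2, the kinase that cyclin E activates, read 6.46 and 5.98 with vehicle and 8.12, 8.44 and 11.17 with IFNa, a difference of 3.03 ± 0.96 (adjusted p = 0.373, limma). The repressors E2f7 and E2f8, which shut E2F targets off late in S phase, differed by -2.50 ± 0.95 and -1.65 ± 0.49. E2f7 read 3.75 and 7.32 with vehicle and 3.29, 2.59 and 3.24 with IFNa. The difference of E2f7 thus rests mainly on vehicle replicate 3, against dim signals on the other arrays that depend on the background step. E2f8 read 10.36 and 9.48 with vehicle and 8.11, 8.31 and 8.39 with IFNa.

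Markers of the labelled cell type and of other cells were read on the same arrays. Of the sort markers, Cdh5 (VE-cadherin) read 9.20 and 6.93 with vehicle and 8.55, 6.55 and 6.23 with IFNa. Ptprc (CD45) read 7.23 and 8.95 with vehicle and 5.85, 7.03 and 5.35 with IFNa, lower on every IFNa array (-2.02 ± 0.75, adjusted p = 0.441 in limma). The 12 blood stem and progenitor markers averaged 6.16 to 6.89 over the IFNa arrays and 6.27 to 6.75 over the vehicle arrays. The 10 macrophage markers averaged 11.79 to 12.14 and 12.02 to 12.17, and all 10 were above the 75th percentile of signals. The median signal percentile was 65.0 for the blood stem and progenitor markers, 50.8 for the endothelial markers and 98.7 for the macrophage markers. These are ranks of probe set signal, not shares of cells. Replication and mitosis signals can come from any cycling cell of the sort, and the part of each cell type in them was not tested.

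The design of the probe sets may bear on the ranks, which was not tested. Of the 33 probe sets, 8 were annotated to a RefSeq mRNA and 25 to another sequence record. Their median signals were 7.31 for the 8 and 9.41 for the 25. The suffixes mark 7 of the 33 as a kind that can match several transcripts or genes. These are the probe sets of Mcm7, Cdc6, Ccne1, Rrm2, Aurkb, Bub1b and Birc5. The table gave each of the 33 genes a single row, so no second probe set was there to compare.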

How the data were processed

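The values used were log2 signals of 20881 probe sets as deposited. They were made by the authors by RMA, a background correction, normalization and summary of array probes, according to the submitters' processing notes. Version, settings and the choice of rows are not stated in these sources. Values ran from -1.95 to 15.64, array medians from 4.98 to 5.15. RMA normally gives few values below 0, so differences between dim signals depend on an unknown background step. No detection calls were used, and 5 arrays limit the precision.

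Rows with 1 annotated symbol (17838) gave 17756 genes, taking the row with the highest mean for 81 symbols. Groups came from the sample titles, since the treatment protocol text names IFNa for all samples. IFNa and vehicle were compared with limma 3.58.1 in R 4.3.3 (lmFit, eBayes with trend), two-sided, with Benjamini-Hochberg adjustment over all genes. The fit was tested on simulated data. Replicates are biological per the labels, and no pair of arrays was identical. Vehicle replicate 1 was not analysed here.

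The members, the other pathway lists, the marker lists and the motifs were chosen with earlier results of these data known. Values on every array are given for members with an unadjusted p under 0.05 or no overlap between groups, and for those at the extremes of signal, spread and difference. From other lists up to 4 genes with an unadjusted p under 0.05 are named, or the one with the smallest p. Ccne1 was given on every array, and Cdh5, Gfi1, Col1a1, Pdgfrb and Ctsg named, outside that rule, after their values were seen. Alternatives are in the closing section.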

Additional observations from a re-analysis of the deposited data

How the results depend on the processing

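Under each of the 13 alternatives 0 of the 33 genes (30 in the test of genes above the median level) passed the threshold in limma. The alternatives changed the sign of a gene's difference in 23 cases and kept it in 403, but many of the 403 could not change. Averaging rows of a symbol, flooring, the variance settings and the cut at the median level leave each remaining gene's difference as it was. The replicate block repeats the differences found without IFNa replicate 1. With each array left out in turn 11 of 16 replication genes and 11 of 17 mitosis genes kept their sign. Genes whose groups do not overlap are among those that kept it, and their sign could not change this way. The median of the replication genes ranged from -0.17 with quantile normalization repeated to 0.21 without IFNa replicate 1. At an unadjusted p under 0.05 stood 3 replication and 2 mitosis genes. Quantile normalization gave 4 and 1, values floored at the 20th percentile and variance without a trend each gave 4 and 2, and genes above the median level gave 3 and 3. Arrays numbered 2 and 3 exist in each group without a label that ties them, and the deviations of arrays with 1 number correlated across genes at 0.0024 and 0.043. The replicate block was fitted on those 4 arrays, where 1 replication gene and 1 mitosis gene had an unadjusted p under 0.05, and 0 and 0 of all genes were called. Leaving out each array gave 1 to 2 replication genes and 0 to 4 mitosis genes at that level. Over all genes 3 were called higher and 21 lower. Only genes above the median level gave 1 and 0, values floored at the 20th percentile gave 0 and 0, and variance without a trend gave 1 and 2. Leaving out each array gave 0 to 37 higher and 0 to 144 lower. The cause of these changes was not tested, beyond fewer genes or arrays where the alternative itself removes them. A lone vehicle array is given the spread of the IFNa arrays.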

Other observations

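Markers of other cells that the sort could hold were read on the same arrays, and 0 of any list passed in limma. An unadjusted p under 0.05, which 10.0% of all genes reached, is the level meant in the counts that follow. Of 12 blood stem and progenitor markers 1 reached it, the sialomucin Cd34 (-2.61 ± 0.63). That list was split, with 6 above 0 and 6 below and a median difference of -0.03, and the repressor Gfi1, higher on every IFNa array, stood at 2.67 ± 1.39. Of 8 endothelial markers 2 reached it, the angiopoietin receptor Tek (2.15 ± 0.72) and the transcription factor Sox18 (-2.41 ± 0.86), and the median was -0.87 with 2 above 0 and 6 below. Sox18 read 6.67 and 3.41 with vehicle and 3.00, 2.58 and 2.31 with IFNa. Its difference thus rests mainly on vehicle replicate 2, against dim signals that depend on the background step. Of 7 mesenchymal markers 2 reached it, the smooth muscle genes Acta2 (-2.04 ± 0.81) and Tagln (-1.73 ± 0.50), whereas 4 of the 7 were above 0 and the median was 0.88. The collagen gene Col1a1 differed by 1.38 ± 0.80 and the receptor gene Pdgfrb by 1.47 ± 0.92, both with overlapping groups. Of 4 granulocyte progenitor markers 1 reached it, the protease Prtn3 (1.15 ± 0.47), with 2 above 0 and 2 below, and cathepsin G (Ctsg) was lower on every IFNa array (-0.39 ± 0.24). Of 6 erythroid markers 0 reached it, the median was -0.66, and the smallest p was that of the alpha-globin Hba-a1 (-0.58 ± 0.30). Of 10 macrophage markers 0 reached it, the median was -0.03, and the smallest p was that of the chemokine receptor Cx3cr1 (-0.95 ± 0.66).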
